A study of Mus musculus with 6 samples.

Results

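Claudins, occludin and ZO-1, the proteins that seal the space between neighbouring epithelial cells, were followed in mouse epidermis that had lost Sox4, Sox11 or both. The 9 genes were Cldn1, Cldn3, Cldn4, Cldn6, Cldn7, Cldn8, Cldn23, Ocln (occludin) and Tjp1 (ZO-1). They were chosen by name, and their probes were found through the gene symbol paired with the accession of each probe, which gave 11 of the 55681 probes tested and 9 of the 21368 symbols represented. Cldn4 and Ocln had 2 probes each, and in these genes the brighter probe stood for the gene.

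RNA of embryonic day 16 epidermis was compared on 6 Agilent arrays in 2 colours, each pairing a knockout with its wild-type littermates, labelled in different dyes. The knockouts are named in the labels as Sox4cKO, Sox11cKO and Sox4/11 dcKO (written here Sox4 cKO, Sox11 cKO and dcKO), with 2 arrays each and the dyes exchanged between replicate 1 and replicate 2. Per the study's methods, floxed Sox4 alleles, floxed Sox11 alleles or both were deleted by Krt14-Cre, which is driven by a promoter of basal keratinocytes and so acts in these cells and their descendants. All embryos, wild types included, carry the strain label 129SvEx:C57BL/6, the Cre line came from FVB/N, and the founders also lacked Sox12. Whether these embryos kept the Sox12 deletion, what alleles the wild-type littermates carried and whether embryos were pooled is not given in the sources used here. The arrays are labelled as biological replicates.

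Tight junctions are belts of claudins and occludin that run between the uppermost living cells of an epithelium and are tied to the actin cytoskeleton by ZO proteins on the inner face of the membrane. In stratified epidermis they lie in the granular layer, under the cornified envelope, and before that envelope forms a tight-junctioned layer of flat cells, the periderm, covers the embryo. Claudins decide which ions pass between the cells, so barrier claudins and pore-forming claudins have opposite roles. Cldn1 is the claudin on which the water barrier of mouse skin rests.

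The targeted genes checked the labels in part. One Sox4 probe was well above background in the wild type on every array and in no Sox4-deleted knockout sample. With the knockout set no lower than the dimmest signal above background, the loss came to at least 3.05-fold for the Sox4 single knockout and at least 3.0-fold for dcKO (limma adjusted p = 0.0284 and 0.00223). The other Sox4 probe, above background in all these channels, had log2 fold changes of −0.42 in Sox4 cKO (adjusted p = 0.802) and −0.82 in dcKO (adjusted p = 0.0768), neither of which passed. The Sox11 probes lay near background and left the Sox11 deletion unchecked on the arrays. The paper reports an RT-qPCR check of Sox4 and Sox11 loss in the epidermal RNA that it then put on arrays. The share of spots well above background ran from 38.9% to 43.6% over the channels. The epidermal identity of the samples was borne out by all 7 basal keratinocyte markers, which were above background in both channels on all 6 arrays. Dermal fibroblast markers were also present, with 7 or 8 of 8 above background in every channel. In these bulk samples, fewer cells of a type and less RNA per cell cannot be told apart.

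None of the 9 genes passed an adjusted p of 0.05 in any comparison. In Sox4 cKO 0 of 9 passed, where 0.00539% of all probes did, and 0 of 9 had an unadjusted p below the same limit, against 6.18% of all probes. In Sox11 cKO 0 of 9 passed, against 0% of all probes, and 2 had an unadjusted p below the limit (Cldn3 and Cldn7), against 7.05%. In dcKO 0 of 9 passed, against 0.833% of all probes and 1.59% of named genes. In that genotype 2 had an unadjusted p below the limit (Cldn3 and Cldn23), against 9.89% of all probes. The median log2 fold change of the 9 genes was 0.12 for Sox4 cKO, −0.04 for Sox11 cKO and 0.04 for dcKO, and over the 8 genes above background (all but Cldn6) it was 0.08, −0.09 and 0.03. The median of all probes was 0.00 in each genotype. The 95% intervals below give the sizes of change that the arrays allow for each gene.

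**Figure D1:**
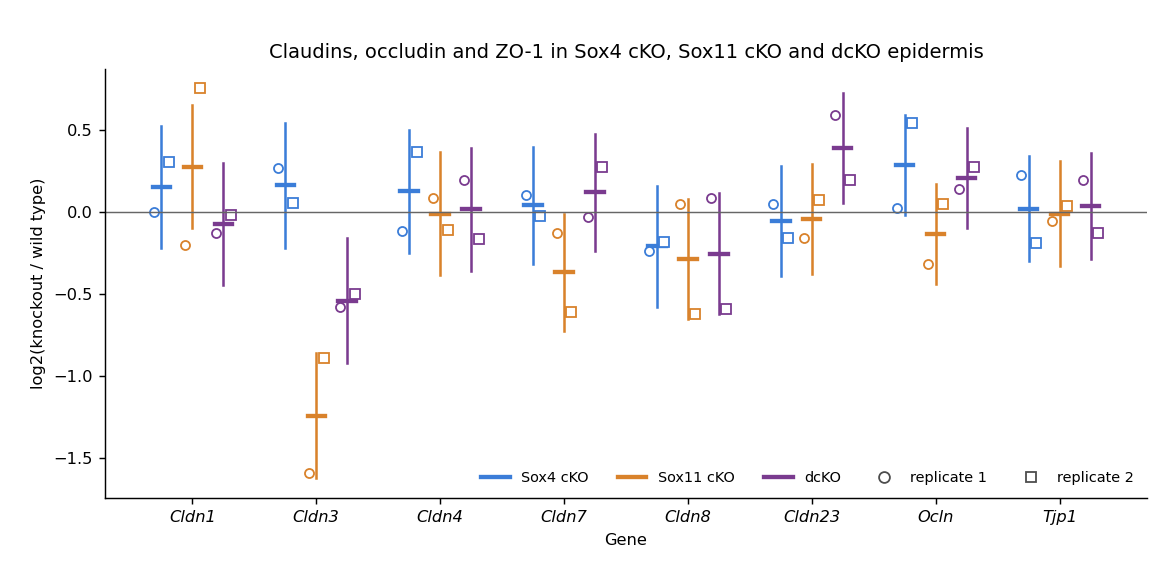
log2(knockout/wild type) of the 8 genes above background in 3 genotypes. Open circles and squares are replicates 1 and 2, thick bars the fitted fold change and vertical lines its 95% confidence interval. Cldn3 was lower on both arrays of Sox11 cKO and of dcKO, Cldn23 was higher on both dcKO arrays, Cldn7 was lower on both Sox11 cKO arrays, and all other intervals include 0.

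Cldn3, a barrier-forming claudin of simple and stratified epithelia, had the largest difference of the 9. On the 2 Sox11 cKO arrays log2(knockout/wild type) was −1.59 and −0.89. On the 2 dcKO arrays it was −0.58 and −0.50, and on the 2 Sox4 cKO arrays 0.27 and 0.06. Both Sox11-deleted genotypes were thus below their wild types on both arrays, and the Sox4 single knockout was not. The fitted log2 fold change in Sox11 cKO was −1.24 (SE 0.17, 95% interval −1.62 to −0.86, limma unadjusted p = 5.07e-05 and adjusted p = 0.314), so that Cldn3 stood at 42.3% of the wild type. Only 8 of the 55681 probes had a lower p in Sox11 cKO, and 2 of 11647 named genes above background there had a more negative fold change. Over probes above background, however, the 2 Sox11 cKO arrays did not correlate with each other (−0.05). The Sox4 cKO pair did not either (−0.07), while the dcKO pair had a correlation of 0.49. The lowest adjusted p of any probe in Sox11 cKO was 0.0951. In dcKO the fold change was −0.54 (95% interval −0.92 to −0.16, adjusted p = 0.307), a level of 68.7% of the wild type, and 437 of 11844 named genes lay lower. In Sox4 cKO it was 0.16 (−0.22 to 0.55, adjusted p = 0.919).

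The Cldn3 call in Sox11 cKO turned on the processing. It passed with a normexp offset of 50 in place of 16 (log2 fold change −1.0, adjusted p = 0.0226) and without background subtraction (−1.08, adjusted p = 0.0398). It also passed when either dcKO array was left out of the fit (−1.24, adjusted p = 0.0182).

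The differences between genotypes were tested as contrasts of the same fit. For Cldn3 Sox4 cKO exceeded Sox11 cKO by 1.41 in log2 fold change (95% interval 0.87 to 1.95, adjusted p = 0.929). In dcKO its fold change was 0.71 lower than in Sox4 cKO in log2 terms (−0.71, interval −1.25 to −0.17, adjusted p = 0.718) and 0.70 higher than in Sox11 cKO (interval 0.16 to 1.24, adjusted p = 0.621). The value in dcKO exceeded the sum of the single knockouts by 0.54 (interval −0.13 to 1.20, adjusted p = 0.826). None of these contrasts passed, and for all 9 genes the counts were 0 of 9 in each. The shares of all probes that passed were 0.0018% between Sox4 cKO and Sox11 cKO, 0.147% between dcKO and Sox4 cKO, 0.163% between dcKO and Sox11 cKO, and 0.088% for the departure from the sum.

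The wild-type channels behind these ratios were not alike. The log2 level of Cldn3 in the wild type was 5.85 and 5.76 on the Sox4 cKO arrays, 7.73 and 8.17 on the Sox11 cKO arrays, and 6.00 and 6.06 on the dcKO arrays. The wild types paired with Sox11 cKO therefore held 2.03 log2 units more Cldn3 signal, on average, than the other 4, with no overlap. In the knockouts the level was 6.12 and 5.81 for Sox4 cKO, 6.13 and 7.28 for Sox11 cKO, and 5.42 and 5.56 for dcKO. Both Sox11 cKO samples thus lay above the wild types of the other 2 genotypes, and both dcKO samples lay below every wild type. Such a split of the wild types was common on these arrays: 3892 of 11163 named genes above background on all arrays (34.9%) had wild types of the Sox11 cKO arrays that did not overlap the other 4. Among the 8 tight junction genes above background, this held for Cldn3, which was higher there, and for the brighter Ocln probe, which was lower.

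The genes whose pattern was most like that of Cldn3 over the 6 arrays were Krt8, Arg1, Krt18, Capn2 and Gprc5a, among 11162 candidates. Their mean absolute difference from Cldn3 in log2(knockout/wild type) was 0.261, 0.263, 0.293, 0.294 and 0.338. Krt8 and Krt18 encode the keratin pair of simple epithelia, which is also made in periderm. Krt8 had log2 fold changes of 0.42, −1.19 and −0.72 in Sox4 cKO, Sox11 cKO and dcKO, and Krt18 of 0.37, −1.23 and −0.48. Their wild-type levels also stood apart on the Sox11 cKO arrays, by 0.97 and 1.04 log2 units over the mean of the other 4.

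**Figure D2:**
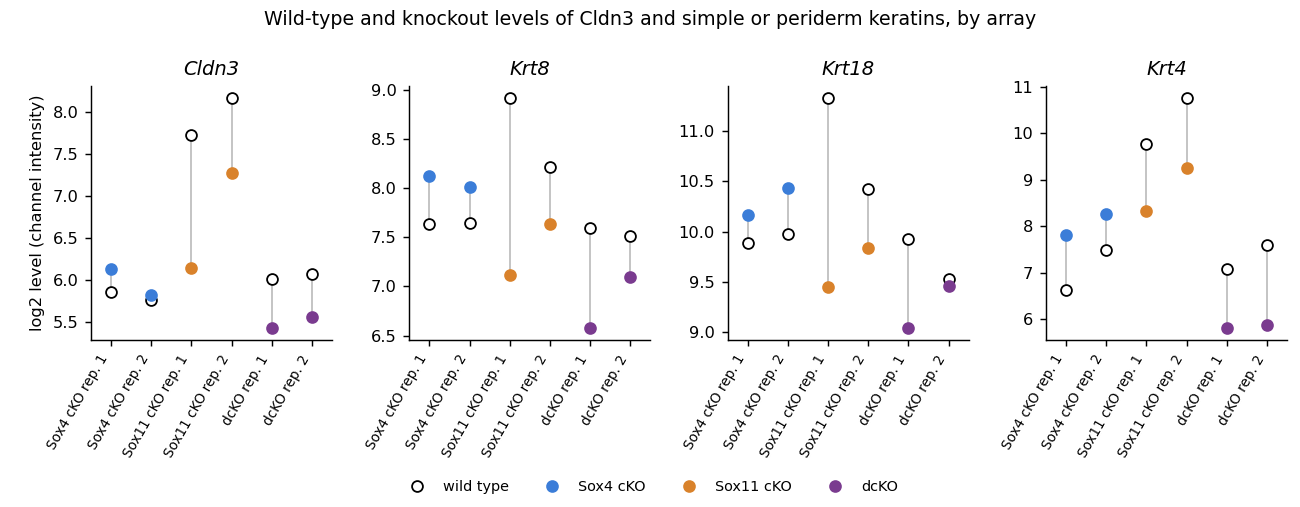
log2 level (channel intensity after normalization between arrays) of Cldn3, Krt8, Krt18 and Krt4 on each of the 6 arrays. Open circles are wild type, filled circles the knockout, and lines join the channels of 1 array. The wild types of the Sox11 cKO arrays, at 7.73 and 8.17 for Cldn3, lie above the other 4 in all 4 panels.

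Markers of the periderm and of the granular layer also differed between these arrays. Of the 8 periderm markers (Krt4, Krt8, Krt18, Krt19, Krt17, Krt6a, Sfta2 and Krt7), the median log2 fold change was 0.43 for Sox4 cKO, −0.88 for Sox11 cKO and −0.90 for dcKO. All 8 were lower on both dcKO arrays, and 3 passed there, against 0.833% of all probes and 1.59% of named genes. In Sox11 cKO 5 of 8 were lower on both arrays and 0 passed, with array medians of −1.38 and −0.29. The markers did not move as one, since Krt6a had −1.02 and 0.28 on the Sox11 cKO arrays, and Krt17 had −0.01 and 0.04 there against −0.91 and −0.97 on the Sox4 cKO arrays. The mean wild-type level of the 8 periderm markers was 8.87 and 9.27 on the Sox4 cKO arrays, 10.2 and 9.93 on the Sox11 cKO arrays, and 9.05 and 9.22 on the dcKO arrays. On the Sox11 cKO arrays, wild-type Krt4 and Krt19 stood furthest above the mean of the other 4, by 3.08 and 1.98 log2 units. Wild-type Krt7, Krt6a, Sfta2 and Krt17 overlapped the other 4, and the Krt17 mean was lower by 0.31. Granular layer markers went the other way in the wild types, with means of 11.1 and 9.68 on the Sox11 cKO arrays and of 11.8 to 12.3 on the other 4. Cdsn, the corneodesmosin gene, was the widest case, at 9.27 and 5.51 in the wild types of the Sox11 cKO arrays against 11.0 to 12.9 elsewhere. The part that these shifts in layer markers have in the Cldn3 values was not tested.

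Promoter sequence is shown for Cldn3 and Cldn4 because these genes are neighbours on mouse chromosome 5 and yet had different values, Cldn3 being lower in both Sox11-deleted genotypes and Cldn4 close to its wild type in all 3. The RefSeq table of promoters (GRCm38.p6) held 7 of the 9 genes, with Cldn8 and Cldn23 having no entry. The 250 bases before the annotated start are given 5′ to 3′ on the strand of the gene. The region of Cldn3 is chr5:134985964-134986213 (plus strand) and that of Cldn4 is chr5:134946935-134947184 (minus strand), and capitals mark the matches to the searched motifs.
Cldn3: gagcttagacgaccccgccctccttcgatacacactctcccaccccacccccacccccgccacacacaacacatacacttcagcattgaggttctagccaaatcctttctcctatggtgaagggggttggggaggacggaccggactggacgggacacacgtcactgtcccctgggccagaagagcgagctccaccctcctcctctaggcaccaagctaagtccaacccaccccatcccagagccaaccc
Cldn4: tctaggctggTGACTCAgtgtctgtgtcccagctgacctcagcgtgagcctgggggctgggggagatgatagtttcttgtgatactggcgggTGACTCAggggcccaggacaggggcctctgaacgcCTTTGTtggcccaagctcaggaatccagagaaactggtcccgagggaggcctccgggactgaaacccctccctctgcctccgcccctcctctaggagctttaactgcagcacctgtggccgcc

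The motifs, searched on both strands, were the SOX cores ACAAAG and ACAAT, the AP-1 motif TGANTCA and the grainyhead motif AACCGG, and none of their matches overlapped another. The window of Cldn4 held 1 match to ACAAAG and 2 matches to TGANTCA, starting 123, 240 and 158 bases before the start. The window of Cldn3 held no match to any of the 4. Among the other genes, Cldn1 had 1 ACAAAG match, and 1 of 2 annotated starts of Cldn7 and of Ocln had 1 AACCGG match each. Of all 32851 promoters in the table, 16.5% held ACAAAG, 27.7% ACAAT, 6.75% TGANTCA and 5.62% AACCGG. A match is a run of letters and was not tested for binding.

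Cldn4, a claudin that limits sodium passage and lies in the upper epidermal layers, had arrays on either side of 0 in every genotype. Its log2(knockout/wild type) was −0.11 and 0.37 for Sox4 cKO, 0.09 and −0.11 for Sox11 cKO, and 0.20 and −0.16 in dcKO. The fitted values were 0.13 (95% interval −0.25 to 0.50), −0.01 (−0.39 to 0.36) and 0.02 (−0.36 to 0.39), with adjusted p of 0.945, 0.995 and 0.987. The second Cldn4 probe had fitted values of 0.00, −0.16 and 0.10. The level of Cldn4 was lower in both channels on replicate 2 of Sox11 cKO (8.26 in the wild type, 8.15 in the knockout) and of dcKO (8.21 and 8.05) than on the other 4 arrays, where it ran from 8.65 to 9.15.

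Cldn23, one of the less studied claudins, was the only member with a positive dcKO value whose 95% interval excluded 0. Its log2(knockout/wild type) in dcKO was 0.59 and 0.19, against 0.05 and −0.16 for Sox4 cKO and −0.16 and 0.07 in Sox11 cKO. The fitted value in dcKO was 0.39 (interval 0.06 to 0.73, unadjusted p = 0.0272 and adjusted p = 0.427), or 131% of the wild type, and 809 of 11844 named genes lay higher. It exceeded the value in Sox4 cKO by 0.45 (interval −0.03 to 0.92) and that in Sox11 cKO by 0.43 (−0.04 to 0.91), differences that did not pass. The 2 dcKO wild types had the lowest Cldn23 levels of the 6, at 7.01 and 6.92 against 7.22 to 7.37, while the dcKO samples stood at 7.60 and 7.11. Among the genes most like it over the 6 arrays were Ier2, Ranbp9, Rapgef5 and Apoc1, with mean absolute differences of 0.0374, 0.0578, 0.0841 and 0.0871.

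Cldn7, a claudin of the lateral membrane, was lower on both Sox11 cKO arrays, at −0.13 and −0.61. The fitted value was −0.37 (interval −0.73 to −0.01, unadjusted p = 0.0446 and adjusted p = 0.706), or 77.5% of the wild type. In Sox4 cKO it was 0.04 and in dcKO 0.12, with replicates on either side of 0 in both. The highest wild-type level was again on a Sox11 cKO array (6.61 on replicate 2, against 5.80 to 6.19 on the other 5).

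Cldn8, a barrier claudin best known from the kidney's collecting duct, had negative fitted values in all 3 genotypes, of −0.21, −0.29 and −0.25. The intervals were −0.58 to 0.16, −0.65 to 0.08 and −0.62 to 0.11, and the adjusted p lay between 0.667 and 0.881. Array by array the ratio was −0.24 and −0.18 for Sox4 cKO, 0.05 and −0.62 for Sox11 cKO, and 0.09 and −0.59 in dcKO. The replicates also differ in dye orientation, and with the fitted dye effect removed both arrays were negative in Sox11 cKO (−0.17 and −0.41) and in dcKO (−0.13 and −0.38), while those of Sox4 cKO were −0.45 and 0.03. Cldn8 was well above background in 5 of 6 wild types and 5 of 6 knockouts. Its nearest genes in pattern were Mageh1, Phc1, Lamb1, Rab4b and Prpf40b, at mean absolute differences of 0.0922 to 0.102.

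Cldn1, the principal barrier claudin of skin, had log2(knockout/wild type) of 0.00 and 0.30 for Sox4 cKO, −0.20 and 0.76 for Sox11 cKO, and −0.13 and −0.02 in dcKO. The fitted values were 0.15 (interval −0.22 to 0.53), 0.28 (−0.10 to 0.65) and −0.07 (−0.45 to 0.30), with adjusted p of 0.923, 0.776 and 0.935. The widest spread was between the Sox11 cKO arrays, whose wild types stood at 7.66 and 6.67 while their knockouts stood at 7.46 and 7.43. The other 4 wild types lay between 7.28 and 7.54. The interval in dcKO corresponds to 73.3% to 123% of the wild type.

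Cldn6, a claudin of early embryonic epithelia, was not well above background in any channel of any array, so no fold is given for it.

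Ocln encodes occludin, a membrane protein of the tight junction strand. Its log2(knockout/wild type) was 0.03 and 0.54 for Sox4 cKO, −0.32 and 0.05 for Sox11 cKO, and 0.14 and 0.27 in dcKO. The fitted values were 0.29 (interval −0.02 to 0.59), −0.13 (−0.44 to 0.17) and 0.21 (−0.10 to 0.51), with adjusted p of 0.813, 0.877 and 0.672. The second, dimmer probe of the gene gave 0.04, −0.01 and −0.27, so the probes disagreed in dcKO, and the mean of both was −0.03 there. By the brighter probe, the wild-type level on the Sox11 cKO arrays was 6.65 and 6.25, below the 6.97 to 7.42 of the other 4, and the knockouts split likewise, at 6.34 and 6.30 against 7.32 to 7.57. By the dimmer probe the wild types overlapped, at 5.92 and 5.32 on the Sox11 cKO arrays against 5.76 to 6.14 on the other 4.

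Tjp1 encodes ZO-1, the scaffold that links claudins and occludin to actin. Its wild types had the smallest spread of the 8 genes above background (SD 0.14 over 6 arrays), lying between 9.46 and 9.79, and its knockouts lay between 9.55 and 9.76. Its fitted values were 0.02 (interval −0.30 to 0.34), −0.01 (−0.33 to 0.31) and 0.04 (−0.28 to 0.36). The interval in dcKO corresponds to 82.1% to 128% of the wild type.

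**Figure D3:**
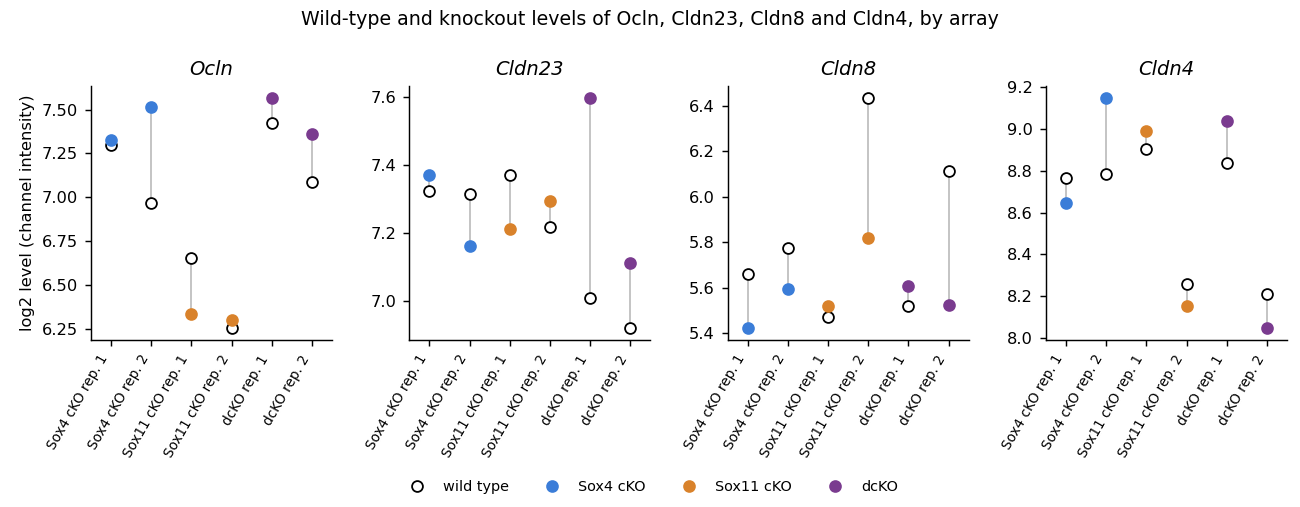
log2 level of Ocln (brighter probe), Cldn23, Cldn8 and Cldn4 on each array. Open circles are wild type, filled circles the knockout, and lines join the channels of 1 array. The brighter Ocln probe is low in both channels of the Sox11 cKO arrays (6.25 to 6.65), and Cldn4 is low in both channels of replicate 2 of Sox11 cKO and dcKO.

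Further genes of the junction were taken from 5 lists: other claudins, other membrane proteins of the tight junction, plaque and polarity proteins, regulators of epithelial junctions, and adherens junction genes. Of 17 other claudins measured, 0 passed in any of the 3 genotypes and 2 were above background on both dcKO arrays. Cldn12 had a dcKO value of 0.16 and Cldn15 of −0.01. Of 12 other membrane proteins 0 passed, and Cxadr, Lsr and F11r, which encode an adenovirus receptor of the junction, angulin-1 of tricellular junctions and JAM-A, had dcKO values of −0.35, −0.23 and −0.12. A second, dimmer Cxadr probe had −0.10.

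Of 22 plaque, polarity and adaptor genes 0 passed at the threshold in any genotype, where at most 0.833% of all probes did (dcKO). Patj, whose product belongs to the Crumbs polarity complex that positions tight junctions, had −0.69 and −0.72 on the dcKO arrays (fitted −0.70, SE 0.13, adjusted p = 0.0615), against −0.01 in Sox4 cKO and −0.04 in Sox11 cKO. The other 4 Patj probes had dcKO values between −0.46 and −0.08. Patj passed under 4 alternatives, with adjusted p of 0.00637 to 0.0371. Amot, which encodes angiomotin, had 0.26 and 1.32 on the dcKO arrays (fitted 0.79, adjusted p = 0.238). It passed when only the Sox4 cKO and dcKO arrays were fitted (adjusted p = 0.0467). Magi3, a scaffold protein gene, had 0.73 and −0.01 on the dcKO arrays (0.36, adjusted p = 0.437), and its second, dimmer probe had a fitted 0.15.

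Of 17 regulators of epithelial junctions, 1 rose and 0 fell in dcKO, where 0.833% of all probes and 1.59% of named genes passed. The fitted value was negative for 12 of 17. On both dcKO arrays 4 of 17 were higher and 8 lower. The gene that rose was Prss8, the gene of the membrane-anchored protease prostasin, on which the tight junctions of mouse epidermis are known to depend. Its log2(knockout/wild type) was 0.80 and 1.17 in dcKO (fitted 0.99, SE 0.13, adjusted p = 0.0112), against 0.08 and 0.18 for Sox4 cKO and 0.13 and 0.32 in Sox11 cKO. The dcKO samples were above their wild types on both arrays, and the second Prss8 probe was higher by 0.53 (0.24 and 0.83, adjusted p = 0.180). By the brighter probe, wild-type Prss8 on the Sox11 cKO arrays lay below the other 4 without overlap (difference of means −1.09 log2 units). The knockouts split likewise. The rise in dcKO exceeded that of Sox4 cKO by 0.86 and that of Sox11 cKO by 0.76, differences that did not pass (adjusted p = 0.289 and 0.377). With an offset of 50 both differences passed, at 0.80 and 0.73 (adjusted p = 0.0130 and 0.0204). Without background subtraction Prss8 passed in the difference from Sox4 cKO (0.83, adjusted p = 0.036). Without dcKO replicate 1 its fold change was 1.1 (adjusted p = 0.0936), without dcKO replicate 2 it was 0.88 (adjusted p = 0.211), and from the ratio of Feature Extraction it was 1.05 (adjusted p = 0.253), none of which passed. Zeb2 and Ovol1, transcription factors that act on epithelial identity, had dcKO values of −0.67 and −0.40 (adjusted p = 0.442 and 0.560). The second, dimmer Zeb2 probe had −0.02. Of 10 adherens junction genes 0 passed, with dcKO values of −0.40 for Nectin2, −0.19 for Ctnna1 and 0.13 for Jup. A second Nectin2 probe had 0.02.

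Markers of the upper layers were also higher in dcKO, though short of the threshold. All 6 suprabasal and all 7 granular layer markers were higher on both dcKO arrays, with median log2 fold changes of 0.51 and 0.64. Of these markers 0 passed in dcKO, against 0.833% of all probes. In Sox11 cKO the medians were 0.52 (6 of 6 higher on both arrays) and 0.70 (5 of 7), and Prss8 was at 0.23. These Sox11 cKO medians came mostly from replicate 2. On replicates 1 and 2 the suprabasal medians were 0.19 and 0.81, and the granular layer medians 0.15 and 1.31. The dcKO arrays were more even, at 0.52 and 0.33 for suprabasal markers and 0.66 and 0.60 for granular layer markers. Dermal fibroblast markers had a median of −1.73 in dcKO, with 6 of 8 lower on both dcKO arrays. The part of these shifts in the Prss8 value was not tested.

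**Figure D4:**
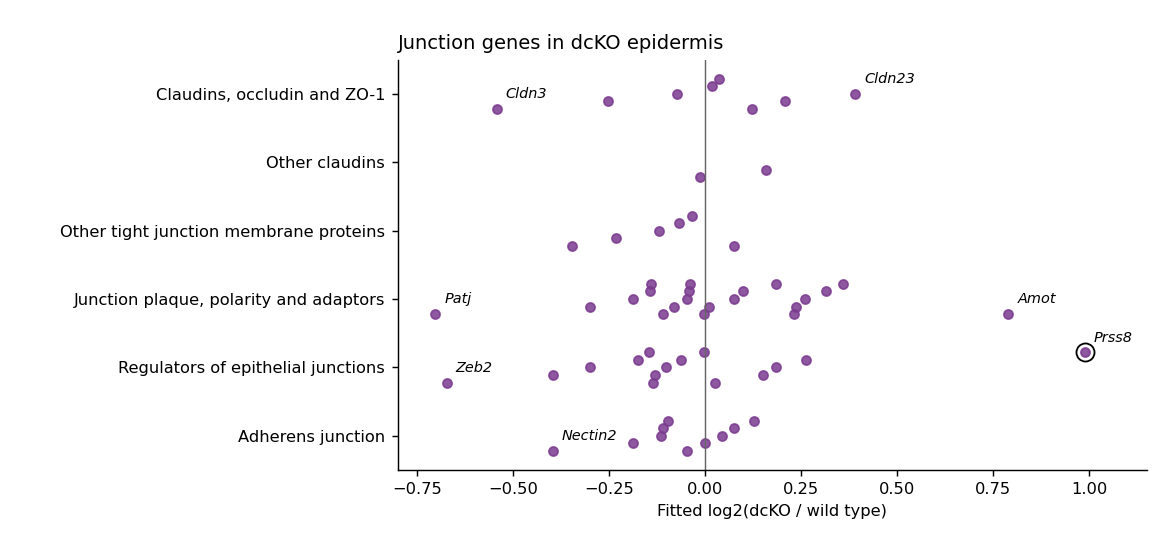
Fitted log2(dcKO/wild type) of the tight junction genes and of 5 further lists, 1 point a gene, for genes well above background in at least 1 channel on both dcKO arrays. A ring marks an adjusted p below 0.05. Prss8, at 0.99, is the only ringed gene, and the 8 tight junction genes plotted lie between −0.54 (Cldn3) and 0.39 (Cldn23).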

How the data were processed

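The authors scanned the arrays with Agilent Feature Extraction 11.0.1.1 and named limma 3.5 for the analysis. The deposited scanner files hold spot intensity and a log10 ratio per spot, and the authors' series table holds 1 log2 value per probe and array. Set against log2(knockout/wild type) recomputed here from the scanner intensities (normexp with an offset of 16, loess), the table had a slope of 1.00 on every array, so its direction was knockout over wild type, and it held no colour adjustment. The table was used as deposited.

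The 55681 non-control probes were fitted in R 4.3.3 with limma 3.58.1, with 1 coefficient per genotype, signed by dye, and 1 dye coefficient, on all 6 arrays together, with 2 residual degrees of freedom. The moderated variance added 6.65 prior degrees of freedom, estimated from all probes. The knockout was in Cy5 on replicate 1 of each genotype, so the dye coefficient was also a replicate block. Deviations of same-numbered arrays from their genotype means correlated at 0.26, 0.31 and 0.33, and the pairing came from the labels. P-values are two-sided and adjusted by Benjamini-Hochberg over all probes. A gene passed at an adjusted p under 0.05. The study's further limit of 1.5 on the absolute log2 fold change was met by none of the 9 genes. The fit was tested on simulated data first.

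Probes were named through RefSeq accessions or Ensembl identifiers (28331 of them), and the brightest probe stood for a gene. Cldn25 and Pals1, which were on the lists, had no named probe. Levels are log2 values of 1 channel, normalized by loess and then by Aquantile between arrays, compared only within a probe. Well above background is the mark that Feature Extraction gives. The 6 arrays shared 1 slide and 1 scan, and no spot was saturated. The number of arrays limits the precision.

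The 9 genes, the junction lists and the marker lists were chosen with earlier results of these data known. From the lists, the genes named were those that passed and the 3 per list with the largest absolute dcKO value above background, and genes of like pattern were the 5 nearest to each of the 3 members with the largest dcKO value (1 such gene is not reported here). Alternatives were other background corrections and normalizations, a filter on dim probes, no replicate block, smaller fits, the mean of all probes and leaving out each array. A fit of the Sox4 cKO and dcKO arrays only was added after seeing the data. The labels do not say from how many animals each sample came, so p-values measure the spread between these samples.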

Additional observations from a re-analysis of the deposited data

Results flagged for a closer look

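Cldn3 had arrays on opposite sides of 0 in Sox4 cKO and Sox11 cKO, and the log2 fold change of Sox4 cKO exceeded that of Sox11 cKO by 1.41, a contrast that did not pass in limma (adjusted p = 0.929). Cldn3 was also split between dcKO and Sox4 cKO, by −0.71 (dcKO minus Sox4 cKO, adjusted p = 0.718). Cldn1 lay above 0 on both Sox4 cKO arrays and below 0 on both dcKO arrays, with a difference of −0.23 (dcKO minus Sox4 cKO, adjusted p = 0.937). Neither split is clear of the dyes. With the fitted dye effect removed, the Sox4 cKO arrays of Cldn3 were at 0.36 and −0.04, while those of Sox11 cKO (−1.50 and −0.99) and dcKO (−0.49 and −0.60) stayed negative. For Cldn1 the Sox4 cKO arrays were then at 0.23 and 0.07 and the dcKO arrays at 0.10 and −0.24.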

How the results depend on the processing

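With 0 of 9 tight junction genes passing in every comparison as reported, the count became 1 in Sox11 cKO (Cldn3 each time) with an offset of 50 and without background subtraction, and ranged from 0 to 1 when 1 array was left out. It stayed 0 in the other comparisons under every alternative run. Without the replicate block the median log2 fold change of the 9 genes was 0.12, −0.04 and 0.04 in Sox4 cKO, Sox11 cKO and dcKO, and no call of a junction gene changed. In Sox4 cKO that median was 0.052 with an offset of 50, 0.021 without background subtraction and 0.064 with the mean of all probes, and it ranged from 0.020 to 0.15 when 1 array was left out. In dcKO it ranged from −0.044 to 0.12. The number of other junction genes passing in dcKO was 1 as reported, 3 with an offset of 50 (Prss8, Patj and Nectin2), 0 from the Feature Extraction log ratio, and 2 without background subtraction, with probes above background only, with the colour effect subtracted first, and with the Sox4 cKO and dcKO arrays only. It ranged from 0 to 2 when 1 array was left out.

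Values near 0 changed sign. Without background subtraction Cldn4 had 0.0019 in Sox11 cKO. From the Feature Extraction log ratio Cldn7 had −0.095 in Sox4 cKO and Cldn23 had 0.021 in Sox11 cKO. The mean of both probes gave Ocln −0.032 in dcKO. When 1 array was left out, the log2 fold change in Sox4 cKO ranged from −0.14 to 0.46 for Cldn3, −0.58 to 0.16 for Cldn8, −0.13 to 0.17 for Tjp1, −0.25 to 0.50 for Cldn4 and −0.12 to 0.0077 for Cldn23. In Sox11 cKO it ranged from −0.31 to 0.23 for Cldn23, −0.24 to 0.22 for Tjp1, −0.10 to 0.65 for Cldn1 and −0.14 to 0.12 for Cldn4. In dcKO it ranged from −0.23 to 0.27 for Cldn4, −0.044 to 0.12 for Tjp1, −0.33 to 0.19 for Cldn1, −0.18 to 0.43 for Cldn7, −0.36 to 0.34 for Cldn15 and −0.82 to 0.026 for Ovol1. The cause of these changes was not tested. Cldn3 kept its negative value in Sox11 cKO and dcKO, and Cldn23 its positive value in dcKO, under every alternative run. An array left out leaves 1 array in its genotype, which is then assumed to vary like the others. Signal over background limits Cldn6, which was not well above it on any array, and Cldn8, which was in 5 of 6 wild types and 5 of 6 knockouts.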
